A study of Mus musculus with 12 samples.

Results

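The 10 genes described here are markers of dendritic cells and costimulatory molecules that antigen-presenting cells show to T cells, namely Xcr1, Clec9a, Batf3, Flt3, Zbtb46, Itgax, Ccr7, Cd40, Cd80 and Cd86. They were taken by their symbols from a table of 55415 gene entries, and each symbol matched 1 entry. RNA was sequenced from tumours of CT26, an established mouse colon carcinoma line, in 4 groups of 3 libraries each. The groups were untreated mice (control), mice given Complex 1, mice given radiation, and mice given Complex 1 and radiation (the combination). Complex 1 is, by the title of the study, a platinum complex activated by X-rays. All groups carried CT26 tumours, and no genetic change of the host is named in the labels. Doses, times, host strain, age and the position of the sampled tumour relative to the beam are not stated in these sources. Nor is it stated whether each library of a group is a separate mouse, and the p-values measure only how the libraries of a group spread.

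Conventional dendritic cells take up material from dying cells, carry it to lymph nodes and show it to T cells. The type 1 subset, marked by Xcr1, Clec9a and Batf3, is known for presenting tumour antigens to CD8 T cells. A T cell that recognises antigen also needs a costimulatory signal, which Cd80 and Cd86 give through Cd28, while Cd40 on the presenting cell receives a signal from the T cell ligand Cd40lg. Cd40, Cd80 and Cd86 are also made by macrophages and B cells, and Itgax by many macrophages, so in whole tumour RNA these genes do not mark dendritic cells alone.

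The libraries held 15.6 to 19.1 mega counts. Levels are given as FPKM (counts per kilobase of exon and per mega count of the library), and differences as log2 fold changes with standard errors (SE) from edgeR's quasi-likelihood test on the counts. A gene passed when its p, adjusted by the Benjamini-Hochberg method over all genes tested, was under 0.05. Genes with at least 1 FPKM in 3 or more of the 12 libraries numbered 13668 and held 5 of the 10 genes (Itgax, Ccr7, Cd40, Cd80 and Cd86). Ccr7 entered through treated libraries, since none of the control libraries reached 1 FPKM. The other 5 genes, and all counts over the 10 genes, come from a fit over the 16227 genes of a filter on counts, which keeps all 10. Batf3 was kept there through treated libraries, since control replicates 2 and 3 had only 6 and 5 counts.

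Some libraries stood apart. Control replicate 2 had 0.02 FPKM of Xist, the RNA of the inactive X chromosome, and 28 counts of 4 Y-linked genes, whereas the other 11 libraries had 9.2 to 14.16 FPKM and at most 1 count. Complex 1 replicate 3 had a summed level of 10 T cell markers of 39.06 FPKM, against 16.09 and 19.37 in the other Complex 1 libraries. Radiation replicate 2 had 10.02 FPKM of the same markers, against 36.11 and 34.46. Calls of the 10 genes that change without these libraries are given beside the results. Across all 12 libraries the epithelial markers were low: Epcam at 0 to 0.18 FPKM, Krt8 at 0.10 to 0.67 and Krt18 at 2.81 to 7.72.

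Cd80 and Cd86 were higher after radiation, with or without Complex 1. Complex 1 alone changed none of the 10 genes past the threshold. The 3 genes that define type 1 dendritic cells here (Xcr1, Clec9a and Batf3) and the lineage genes Flt3 and Zbtb46 were low. Each was under 1 FPKM in all 12 libraries. None of these 5 passed in any of the 8 comparisons of the reported edgeR fit. Xcr1 passed in some other settings, given below. Ccr7 was higher with radiation and with the combination against control, and Cd40 with the combination, in calls that depended on single libraries. Cd40 with radiation alone did not pass (edgeR adjusted p = 0.053). In whole tumour RNA, more cells of a type and more RNA per cell cannot be told apart, for these and all results that follow.

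**Figure D1:**
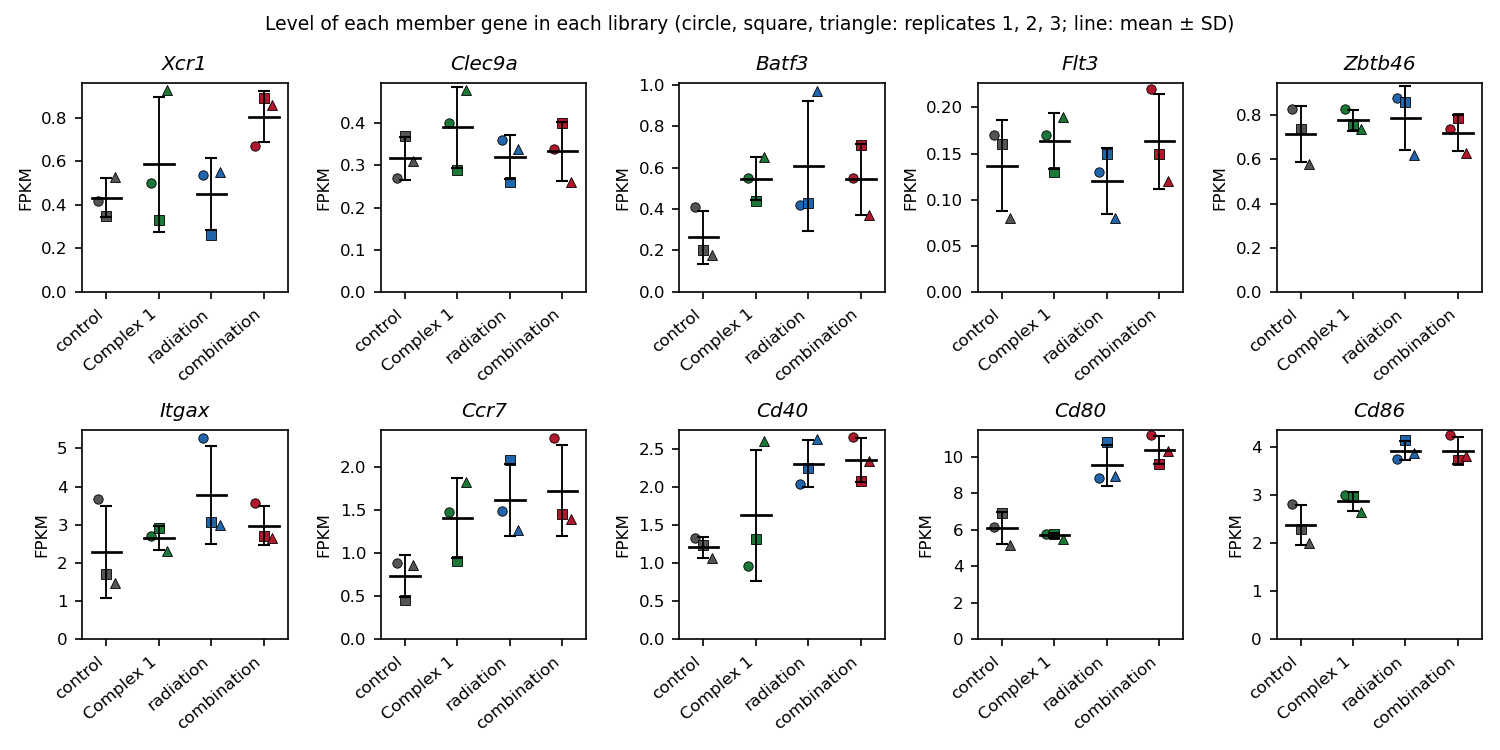
Level of each of the 10 genes in FPKM (vertical axes, linear, starting at 0) in the 12 libraries, grouped as control, Complex 1, radiation and combination, with a point per library (circle, square and triangle for replicates 1, 2 and 3) and lines for the mean ± SD. Cd80 and Cd86 separate the groups with radiation from those without, whereas Clec9a, Flt3 and Zbtb46 overlap between all groups.

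Cd80 (ENSMUSG00000075122, mm39 chr16:38275923-38316697, plus strand) encodes a ligand that binds both Cd28, which activates T cells, and Ctla4, which restrains them. It was the most abundant of the 10 genes per length. The control libraries had 6.17, 6.91 and 5.15 FPKM and the Complex 1 libraries 5.78, 5.75 and 5.51. The radiation libraries had 8.80, 10.81 and 8.93 FPKM and the combination libraries 11.15, 9.61 and 10.31. All 6 irradiated libraries lay above all 6 others. The group means were 6.08 ± 0.884 in control, 5.68 ± 0.148 with Complex 1, 9.51 ± 1.12 with radiation and 10.4 ± 0.771 with the combination (SD, n = 3 each). Cd80 rose by a log2 fold change of 0.62 ± 0.11 (SE, adjusted p = 0.0045) with radiation and by 0.72 ± 0.11 (adjusted p = 0.00088) with the combination, both against control. Against Complex 1 alone the combination was higher by 0.85 ± 0.11 (adjusted p = 0.0015). Complex 1 against control gave -0.13 ± 0.12 (adjusted p = 0.705).

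Cd86 (ENSMUSG00000022901, mm39 chr16:36424231-36486443, minus strand) encodes the other ligand of Cd28 and Ctla4. It had 2.82, 2.30 and 2.01 FPKM in control and 3.0, 2.96 and 2.64 FPKM with Complex 1. With radiation it had 3.76, 4.15 and 3.87 FPKM, and with the combination 4.24, 3.72 and 3.82 FPKM. All 6 irradiated libraries again lay above all 6 others, and the 2 irradiated groups overlapped. Cd86 rose by 0.70 ± 0.13 (SE, edgeR adjusted p = 0.0048) with radiation and by 0.68 ± 0.13 (adjusted p = 0.0028) with the combination against control. Against Complex 1 the combination gave 0.44 ± 0.13 (adjusted p = 0.0498). That last call lay at the threshold, with an adjusted p of 0.0561 over the genes of the count filter and from 0.0528 to 0.162 without any one of 10 libraries. The ratio of the FPKM of Cd80 to that of Cd86 was 2.19 to 3.0 in control, 1.93 to 2.09 with Complex 1, 2.31 to 2.61 with radiation and 2.58 to 2.70 with the combination. Across the 12 libraries, log2 levels of the 2 genes had a Pearson r of 0.87 and a Spearman rho of 0.85, and an r of 0.63 for deviations from the group means. These describe libraries that share the treatment groups and carry no test.

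Cd40 (ENSMUSG00000017652, mm39 chr2:164897547-164914868, plus strand), the receptor of the tumour necrosis factor family through which helper T cells license presenting cells, had 1.33, 1.23 and 1.06 FPKM in control. With Complex 1 it had 0.96, 1.32 and 2.60 FPKM, the high value being that of replicate 3. Radiation libraries had 2.03, 2.25 and 2.63 FPKM and combination libraries 2.65, 2.07 and 2.34. Both irradiated groups lay above control without overlap. Cd40 rose with the combination against control by 0.91 ± 0.29 (SE, edgeR adjusted p = 0.036). Radiation alone gave nearly the same difference, 0.90 ± 0.28, with an adjusted p of 0.053 that did not pass. Without Complex 1 replicate 3 the radiation difference was the same with a smaller SE of 0.18 and passed (adjusted p = 0.0046). In the same setting the combination exceeded Complex 1 by 1.04 (adjusted p = 0.0053), against 0.52 ± 0.28 (adjusted p = 0.272) with all libraries. The call of the combination against control was lost without any one of the 3 control or 3 combination libraries (adjusted p from 0.0549 to 0.108).

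Ccr7 (ENSMUSG00000037944, mm39 chr11:99035022-99045903, minus strand), the chemokine receptor that guides mature dendritic cells and naive T cells to lymph nodes, had 17 to 78 counts per library. It had 0.88, 0.45 and 0.86 FPKM in control and 1.48, 0.91 and 1.82 FPKM with Complex 1. It had 1.49, 2.08 and 1.27 FPKM with radiation and 2.33, 1.45 and 1.39 FPKM with the combination. Every treated library lay above every control library in FPKM, narrowly for Complex 1 replicate 2 (0.91 against 0.88), and the 3 treated groups overlapped. Ccr7 rose by 1.12 ± 0.34 (SE, edgeR adjusted p = 0.045) with radiation and by 1.19 ± 0.34 (adjusted p = 0.024) with the combination. With Complex 1 alone the difference was 0.92 ± 0.35 (adjusted p = 0.288). The radiation call was lost without any one of 9 of the 12 libraries, with log2 fold changes of 0.87 to 1.29 and adjusted p from 0.0521 to 0.156. The lowest control value was that of replicate 2, without which the combination gave 0.93 (adjusted p = 0.0986), and without combination replicate 1 it gave 0.91 (adjusted p = 0.106).

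Itgax (ENSMUSG00000030789, mm39 chr7:127728719-127749829, plus strand) encodes CD11c, the integrin chain commonly used to sort dendritic cells. It had 3.66, 1.71 and 1.48 FPKM in control and 2.71, 2.92 and 2.30 FPKM with Complex 1. It had 5.27, 3.08 and 2.98 FPKM with radiation and 3.56, 2.71 and 2.65 FPKM with the combination. Control replicate 1 lay above all Complex 1 libraries and all combination libraries, so the groups overlapped. Itgax did not pass in any comparison, at 0.70 ± 0.30 (SE, edgeR adjusted p = 0.147) for radiation and 0.33 ± 0.31 (adjusted p = 0.483) for the combination against control. Without control replicate 1 the radiation difference was 1.21 (adjusted p = 0.0156) and that of the combination 0.85 (adjusted p = 0.0373), both passing. Of the 31-base stretches in its reference transcripts, 10.7% also occur in transcripts of other genes, the highest share of the 10 genes, so its count is the least certain in that respect.

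The start regions of 7 of the 10 genes were matched in RefSeq promoters (build GRCm38.p6), and 3 are shown because they hold the letters TGANTCA, the core to which AP-1 factors bind. AP-1 factors, and heterodimers of Batf3 with Jun proteins, bind such cores. Each window is the 250 bases before a RefSeq start, found by symbol. Whether that start is the first base of the entry counted here, placed on another build, was not tested, so a window may lie inside the gene. The match is in capitals: Cd80 at chr16:38458683-38458932 on the plus strand, Itgax at chr7:128129300-128129549 on the plus strand and Zbtb46 at chr2:181424389-181424638 on the minus strand.
Cd80: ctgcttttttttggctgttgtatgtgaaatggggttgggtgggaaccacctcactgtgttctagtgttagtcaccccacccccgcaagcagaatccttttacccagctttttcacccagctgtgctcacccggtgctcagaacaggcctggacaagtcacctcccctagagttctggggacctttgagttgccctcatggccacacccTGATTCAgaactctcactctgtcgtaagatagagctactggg
Itgax: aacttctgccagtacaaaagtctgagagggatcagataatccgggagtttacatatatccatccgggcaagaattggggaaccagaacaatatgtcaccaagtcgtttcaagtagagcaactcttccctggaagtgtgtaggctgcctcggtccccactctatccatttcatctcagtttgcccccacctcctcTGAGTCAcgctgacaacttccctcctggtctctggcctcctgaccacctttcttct
Zbtb46: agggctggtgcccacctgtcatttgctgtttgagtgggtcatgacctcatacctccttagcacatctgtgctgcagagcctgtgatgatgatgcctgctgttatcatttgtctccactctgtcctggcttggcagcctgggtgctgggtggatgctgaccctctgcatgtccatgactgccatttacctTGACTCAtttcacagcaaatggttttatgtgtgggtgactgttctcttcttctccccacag
The same letters occur in 6.75% of all 32851 windows of this length. Cd80 rose with radiation, whereas Itgax and Zbtb46, with the same letters, did not pass. The other patterns were searched on both strands too, and no match of theirs overlapped a TGANTCA match in these windows. The interferon response element (in 2.98% of all windows) and the NF-kB site (1.41%) were in none of the 7 windows. TTCNNNGAA (STAT site, 7.02%) and GAGGAA (PU.1, 23.3%) were each in the Batf3 window alone. The windows of Xcr1, Clec9a and Flt3 held none of the 5 patterns. A match describes letters only.

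Xcr1 (ENSMUSG00000060509, mm39 chr9:123681380-123691094, minus strand), the receptor for the chemokine Xcl1 that is found on type 1 dendritic cells, had 0.42, 0.35 and 0.53 FPKM in control. It had 0.50, 0.33 and 0.93 FPKM with Complex 1, and 0.54, 0.26 and 0.55 FPKM with radiation. The combination libraries had 0.67, 0.89 and 0.86 FPKM. All 3 combination libraries lay above all control and all radiation libraries, and Complex 1 replicate 3 exceeded them. The difference of the combination from control was 0.83 ± 0.36 (SE, edgeR adjusted p = 0.119) and from radiation 0.81 ± 0.36 (adjusted p = 0.477), with a 95% interval of 0.05 to 1.58 before adjustment. Radiation alone gave 0.02 ± 0.37 (adjusted p = 0.981). The combination against control passed without a filter on low genes, at 0.82 (edgeR adjusted p = 0.0313). It also passed in a fit of only the groups compared, at 0.83 (adjusted p = 0.0324). With Complex 1 replicate 3 and radiation replicate 2 left out together, the combination against control passed at 0.83 (adjusted p = 0.0227) and against Complex 1 at 0.92 (adjusted p = 0.0397). In that setting radiation over both levels of Complex 1 passed as well, at 0.61 (adjusted p = 0.0322), against 0.22 (adjusted p = 0.565) with all libraries. The libraries left out held the highest (0.93 FPKM) and the lowest (0.26 FPKM) Xcr1 level of all 12. Their removal by itself raises the difference from Complex 1 and that over both levels, so these calls are no independent support. With log2 Ptprc as a covariate, the Xcr1 estimate for the combination against control was negative, at -1.34 ± 0.87 (edgeR adjusted p = 0.768).

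Clec9a (ENSMUSG00000046080, mm39 chr6:129385825-129401726, plus strand), the receptor with which type 1 dendritic cells sense the exposed actin of dead cells, had 0.27, 0.37 and 0.31 FPKM in control. It had 0.40, 0.29 and 0.48 FPKM with Complex 1, 0.36, 0.26 and 0.34 with radiation, and 0.34, 0.40 and 0.26 with the combination. All 4 groups overlapped. Radiation against control gave -0.02 ± 0.30 (SE, edgeR adjusted p = 0.976; 95% interval -0.67 to 0.63), and the combination 0.02, with an interval of -0.63 to 0.68. Reads of Clec1b, which overlaps Clec9a on the same strand, averaged 1.08 counts per library against 19.7 for Clec9a.

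Batf3 (ENSMUSG00000026630, mm39 chr1:190830044-190841142, plus strand), the transcription factor needed to form type 1 dendritic cells, had 5 to 29 counts per library. It had 0.41, 0.20 and 0.18 FPKM in control and 0.55, 0.44 and 0.65 with Complex 1. It had 0.42, 0.43 and 0.97 FPKM with radiation, and 0.55, 0.71 and 0.37 with the combination. The Complex 1 and radiation libraries lay above the control libraries in FPKM, whereas the lowest combination library lay below the highest control. The separation was narrow and came from the library totals. Control replicate 1 and radiation replicate 1 each had 12 counts, and Complex 1 replicate 2 had 11. Differences from control were 1.17 ± 0.46 with radiation (SE, edgeR adjusted p = 0.117), 1.03 ± 0.47 with Complex 1 (adjusted p = 0.402) and 0.97 ± 0.47 with the combination (adjusted p = 0.165). Radiation replicate 3 was the highest library, and with each library left out in turn the radiation difference ranged from 0.65 to 1.63.

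Flt3 (ENSMUSG00000042817, mm39 chr5:147267551-147337299, minus strand) encodes the receptor of Flt3l, the growth factor of dendritic cells. It ranged from 0.08 to 0.17 FPKM in control, 0.13 to 0.19 with Complex 1, 0.08 to 0.15 with radiation and 0.12 to 0.22 with the combination, from 9 to 22 counts. The groups overlapped, and the difference with radiation was -0.27 ± 0.38 (SE, edgeR adjusted p = 0.690; 95% interval -1.09 to 0.54). Differences within that interval are compatible with these counts. With the combination Flt3 gave 0.20, with an interval of -0.59 to 1.00. Its ligand Flt3l had 2.66 to 3.33 FPKM in control and 3.40 to 5.28 FPKM with the combination, a rise of 0.55 ± 0.16 (edgeR adjusted p = 0.024), and did not pass with radiation, at 0.24 ± 0.16 (adjusted p = 0.337). Whether ligand and receptor differed in response was not tested.

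Zbtb46 (ENSMUSG00000027583, mm39 chr2:181029555-181101219, minus strand), a transcription factor of conventional dendritic cells also made by endothelium, had the narrowest range of the 10 genes relative to its level. It had 0.83, 0.74 and 0.58 FPKM in control and 0.83, 0.76 and 0.74 with Complex 1. It had 0.88, 0.86 and 0.62 FPKM with radiation and 0.74, 0.79 and 0.63 with the combination. The groups overlapped. Radiation gave 0.09 ± 0.18 (SE, edgeR adjusted p = 0.780; 95% interval -0.28 to 0.47) and the combination -0.05, with an interval of -0.44 to 0.33.

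Counted over the 10 genes, 3 were higher with radiation against control and none was lower. Of all genes, 6.46% were higher and 5.27% lower in that fit (7.39% and 5.86% over the 13668 genes). At an unadjusted p under 0.05, 6 of the 10 and 27.3% of all genes differed. DESeq2 called 4, with no adjusted p for 2, and limma called 2. In 5 of the 10 (Batf3, Ccr7, Cd40, Cd80 and Cd86) the radiation libraries lay wholly above the control libraries in FPKM, as they did for 18.3% of all genes. For Batf3 this did not hold in raw counts, and Batf3 was kept by the count filter through treated libraries. The median log2 fold change of the 10 genes was 0.65, against 0.01 over all genes tested.

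With the combination against control 4 of the 10 were higher (Ccr7, Cd40, Cd80 and Cd86) and none lower, where 11.2% of all genes were higher and 9.19% lower (11.9% and 10% over the 13668 genes). DESeq2 and limma each called 4. The combination libraries lay wholly above the control libraries in 5 of the 10 (Xcr1, Ccr7, Cd40, Cd80 and Cd86) and in 24.4% of all genes. At an unadjusted p under 0.05, 5 of the 10 and 33.6% of all genes differed. These comparisons share the control libraries, as does the next. With Complex 1 against control none of the 10 passed in edgeR, DESeq2 or limma, and 2 (Batf3 and Ccr7) had an unadjusted p under 0.05, as had 12.2% of all genes. Of all genes, 0.567% were higher and 0.0801% lower (0.717% and 0.0951% over the 13668 genes). The Complex 1 libraries lay above control in FPKM, though not in raw counts, in those 2 of the 10, and in FPKM in 11.3% of all genes.

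Adding Complex 1 to radiation changed none of the 10 genes past the threshold in edgeR, DESeq2 or limma, and 1 (Xcr1) had an unadjusted p under 0.05, a share like the 9.76% of all genes. Of all genes, 0.573% were higher and 0.0308% lower (0.615% and 0.0366% over the 13668 genes). Xcr1 was also the only one of the 10 whose combination libraries lay above all radiation libraries, a separation seen in 10.2% of all genes. The interval of this difference for Cd80 was -0.14 to 0.34 and for Cd86 -0.29 to 0.25 on the log2 scale. Those for Cd40 (-0.58 to 0.60) and Ccr7 (-0.61 to 0.75) were wider. Adding radiation to Complex 1 gave 1 higher gene of 10 in the fit over the count filter (Cd80), where 4% of all genes were higher and 4.53% lower. DESeq2 called 2, with no adjusted p for 1, and limma called 2. The combination libraries lay above all Complex 1 libraries for Cd80 and Cd86, and for 16.4% of all genes.

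Over both levels of Complex 1, radiation raised 4 of the 10 genes, where 12.3% of all genes were higher and 11.9% lower. The 4 were Cd80 at 0.73 ± 0.08 (SE, edgeR adjusted p = 7.1e-05), Cd86 at 0.57 ± 0.09 (adjusted p = 0.00075), Cd40 at 0.71 ± 0.20 (adjusted p = 0.019) and Ccr7 at 0.69 ± 0.23 (adjusted p = 0.043). The Ccr7 call was lost without any one of 7 libraries (adjusted p from 0.0507 to 0.108), and the Cd40 call without Complex 1 replicate 2 (adjusted p = 0.0506). Over both levels of radiation, Complex 1 changed none of the 10 in edgeR, DESeq2 or limma, where 1.94% of all genes were higher and 0.456% lower. Xcr1 had the only unadjusted p under 0.05 of the 10 there, at 0.61 ± 0.26 (adjusted p = 0.242), where 17.1% of all genes had one. The interaction, which asks whether the effect of radiation differed with Complex 1, called 0 of the 10 and 0% of all genes in each direction in edgeR, with 0 of the 10 and 734 of 16227 genes at an unadjusted p under 0.05. DESeq2 and limma called 0 of the 10 as well, and DESeq2 called 5 genes higher and 1 lower of the 13668. Its largest estimates among the 10 were -1.22 ± 0.63 for Batf3 and -0.86 ± 0.47 for Ccr7.

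**Figure D2:**
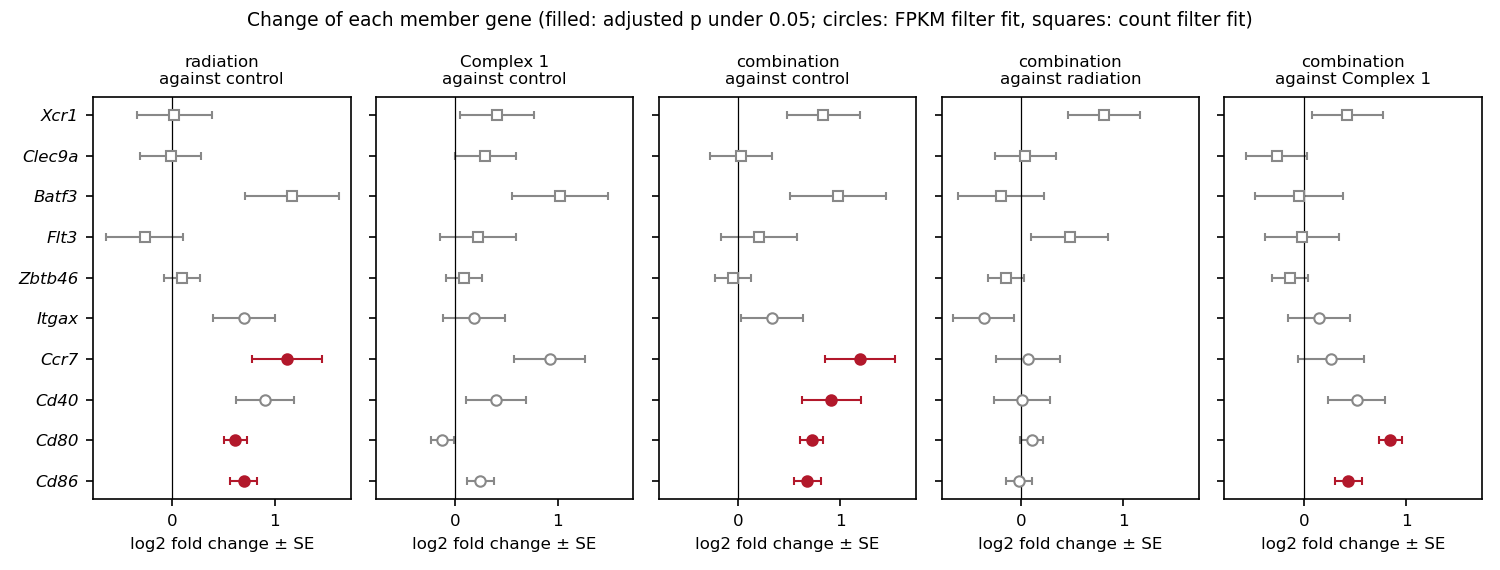
Log2 fold changes (horizontal axis) of the 10 genes in the pairwise comparisons, with bars for ± SE and filled points for an adjusted p under 0.05. Circles come from the FPKM filter and squares from the count filter. Cd80 and Cd86 lie to the right of 0 with short bars where radiation is the difference, and Batf3, Xcr1 and Flt3 have wide bars.

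Markers of other leukocytes also differed between the groups, in patterns that were not all alike. Ptprc, the CD45 gene of all leukocytes, had 3.82 to 3.88 FPKM in control, 4.81 to 6.92 with Complex 1, 5.11 to 7.12 with radiation and 8.88 to 9.29 with the combination. The summed level of 12 macrophage and monocyte markers was 1004 to 1193 FPKM in control and 1412 to 1571 with Complex 1. It was 2109 to 2291 with radiation and 2127 to 2265 with the combination. In edgeR 9 of the 12 were higher with radiation and 9 with the combination, where 7.39% and 11.9% of the 13668 genes were. With Complex 1 none of the 12 passed in edgeR, and 9 had an unadjusted p under 0.05, as had 12.2% of all genes of the count filter. The sum of 8 B cell markers was 0.79 to 1.23 FPKM in control, 1.34 to 4.76 with Complex 1, 1.82 to 2.25 with radiation and 2.39 to 2.97 with the combination. Only Cd22 of these passed the FPKM filter, through irradiated libraries. The sum of 8 neutrophil markers was 11.59 to 20.23 FPKM in control, 93.32 to 201.83 with Complex 1, 10.95 to 36.44 with radiation and 250.66 to 414.71 with the combination.

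Levels were also set against the macrophage markers, and for the costimulatory genes the outcome depended on which markers were used. Per 100 FPKM of the summed list, Cd86 had 0.198 to 0.236 FPKM in control, 0.168 to 0.210 with Complex 1, 0.169 to 0.196 with radiation and 0.172 to 0.187 with the combination. Cd80 had 0.513 to 0.594 in control, 0.351 to 0.407 with Complex 1, 0.390 to 0.510 with radiation and 0.444 to 0.492 with the combination on that scale. Control lay above the irradiated groups for both, but Lyz2 alone made up 48.4% to 58.4% of the sum and rose with radiation by 1.08 ± 0.10. Without Lyz2 in the sum, a denominator added after the data were seen, the groups overlapped, with Cd86 at 0.388 to 0.500 in control and 0.389 to 0.470 with radiation, and Cd80 at 0.994 to 1.26 and 0.897 to 1.23. Per 100 FPKM of Csf1r, the receptor of the macrophage growth factor, the order turned for Cd86, at 12.1 to 13.2 in control, 15.3 to 17.4 with radiation and 15.6 to 16.1 with the combination. Cd80 on that scale was 26.7 to 39.6 in control, overlapped by radiation (35.3 to 45.2), with the combination above both Complex 1 and control at 41.1 to 42.1. Per 100 FPKM of Cd68, another marker of the list, both genes overlapped between control and each irradiated group. Neither Csf1r nor Cd68 was named as a denominator in advance. No direction of Cd80 or Cd86 per macrophage RNA is therefore given.

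Zbtb46 per 100 FPKM of the list was 0.0578 to 0.0696 in control and, just below it, 0.0471 to 0.0573 with Complex 1. With radiation it was 0.0271 to 0.0417 and with the combination 0.0296 to 0.0365. Clec9a was 0.0226 to 0.0318 in control and 0.0205 to 0.0306 with Complex 1. With radiation it was 0.0123 to 0.0171 and with the combination 0.0122 to 0.0185. Xcr1 and Flt3 lay below control with radiation but overlapped it with the combination, and Batf3 overlapped control in both irradiated groups. Zbtb46 and Clec9a also lay below control in the irradiated groups without Lyz2 in the sum and per 100 FPKM of Cd68. Per 100 FPKM of Csf1r they overlapped, except that Zbtb46 with the combination (at most 3.43) lay just under control (at least 3.49). Their plain FPKM overlapped in all groups. The part that macrophages have in the levels of Cd80 and Cd86 was not tested.

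**Figure D3:**
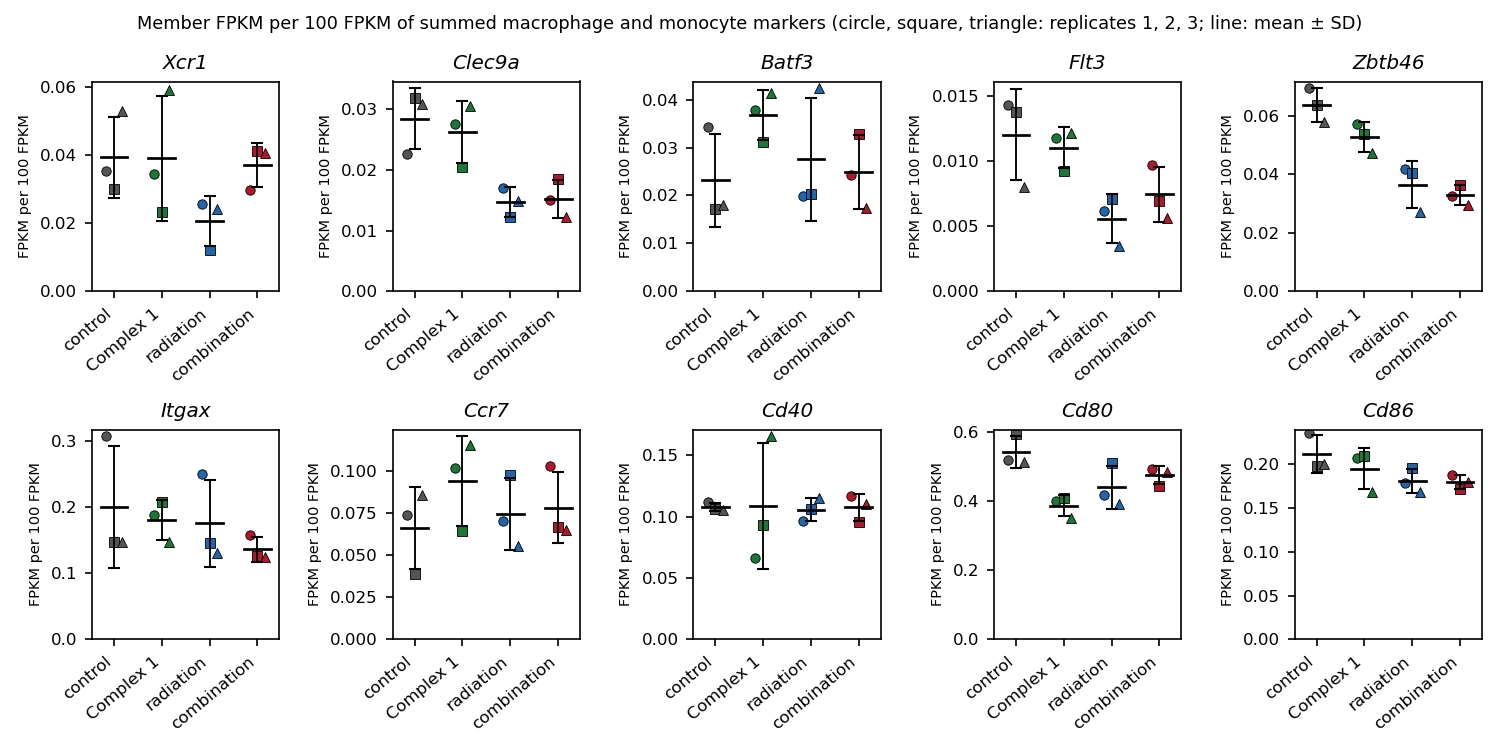
FPKM of the genes divided by the summed FPKM of 12 macrophage and monocyte markers (per 100 FPKM of the list, vertical axes) in the 12 libraries by group. Lines are the mean ± SD. The control libraries lie above both irradiated groups for Cd80, Cd86, Zbtb46 and Clec9a on this scale, which for Cd80 and Cd86 did not hold without Lyz2 in the sum.

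With log2 Ptprc as a covariate, 42 of the 13668 genes were higher with radiation in place of 1010. In that fit over the count filter, none of the 10 genes passed in a comparison of 2 groups. The log2 fold changes of Cd80, Cd86 and Ccr7 were nonetheless larger than without the covariate, with wider SE. With radiation against control they were 0.86 ± 0.19 for Cd80 (SE, edgeR adjusted p = 0.0855), 0.88 ± 0.23 for Cd86 (adjusted p = 0.151) and 1.38 ± 0.57 for Ccr7 (adjusted p = 0.364). For the combination they were 1.15 ± 0.31 for Cd80 (adjusted p = 0.264) and 1.00 ± 0.36 for Cd86 (adjusted p = 0.495). Over both levels of Complex 1, Cd80 passed, at 0.96 (edgeR adjusted p = 0.0366). Cd40 changed sign there, at -0.09 (adjusted p = 0.956), and likewise for the combination against control, at -0.62 (adjusted p = 0.891). Some genes that were not called moved too, Xcr1 among them. It went from 0.83 to -1.34 ± 0.87 (edgeR adjusted p = 0.768) for the combination against control. For radiation against control Xcr1 went from 0.02 to -1.29 ± 0.58 (adjusted p = 0.417), and for combination against radiation from 0.81 to -0.05. Ptprc itself differs between the groups, and the SE of Cd80 for radiation against control was 0.19 in this fit against 0.11 without the covariate.

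Further genes of these cells were read from lists, in which only genes past the FPKM filter were tested. Of those genes, 7.39% were higher with radiation and 11.9% with the combination, beside which the list counts stand. Ccr7, Ccl17, Cd7 and Cd28 entered only through treated libraries. All list medians below stand against -0.01 over all genes for radiation and for the combination, both against control. Of 10 type 1 dendritic cell markers, 5 were tested and 3 were higher with radiation: Tlr3 (1.01 ± 0.18), Irf8 (0.78 ± 0.18) and Naaa (0.64 ± 0.17), with a median of 0.64. With the combination 4 of the 5 were higher, Wdfy4 in addition at 0.58 ± 0.14, with a median of 0.90. Tlr3, a sensor of double-stranded RNA, and Irf8, a transcription factor, are also used by macrophages, whereas Xcr1, Clec9a and Batf3 were below this filter. Of the 5 tested markers shared by conventional dendritic cells, none passed in either comparison (1 at an unadjusted p under 0.05 in each), with medians of 0.26 and 0.39. Type 2 markers gave 2 higher of 6 with radiation, Sirpa (0.74 ± 0.10), an inhibitory receptor broadly found on myeloid cells, and Tnfsf12 (0.42 ± 0.12). With the combination 2 were higher, Sirpa (0.77 ± 0.10) and Ltb (1.26 ± 0.37), and Klf4 was lower (-0.34 ± 0.07).

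Of 14 genes of mature migratory dendritic cells 13 were tested, and 1 (Ccr7) was higher with radiation, a share like that of all genes. With the combination 4 were higher, namely Ccr7, the chemokine Ccl5 (1.58 ± 0.41), Il15ra (1.26 ± 0.28) and Marcksl1 (0.96 ± 0.19), and the list's median was 0.38. Among 5 tested plasmacytoid markers the interferon-induced genes Irf7 (1.62 ± 0.30) and Bst2 (0.85 ± 0.23) were higher with radiation. Both were higher with the combination too, and Cox6a2 was lower (-3.15 ± 0.81). The list's medians were -0.07 and -0.15.

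Of 12 costimulatory molecules 8 were tested, of which 4 were higher with radiation (Cd48, Icam1, Cd80 and Cd86) and 7 with the combination, with medians of 0.66 and 0.70. Icam1, the adhesion ligand of T cell integrins, rose by 1.14 ± 0.19 and 1.38 ± 0.19 in these comparisons. Cd48 rose by 0.89 ± 0.13 and 1.04 ± 0.13, and also with Complex 1 alone, by 0.66 ± 0.13, as the only one of the 8. Tnfsf4, the OX40 ligand, was under the filter, with 0.03 to 0.18 FPKM in control, 0.39 to 0.73 with radiation and 0.46 to 0.86 with the combination. Of 8 T cell partners 7 were tested, of which none passed with radiation (1 at an unadjusted p under 0.05). With the combination 3 were higher: Icos (1.37 ± 0.33), Ctla4 (1.24 ± 0.40) and Cd28 (1.40 ± 0.46). Cd28 and Ctla4 encode the receptors of Cd80 and Cd86. Cd40lg, the ligand of Cd40, was at 0 to 0.23 FPKM.

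Among 13 ligands and cytokines of dendritic cells 8 were tested. Il15 (1.07 ± 0.13), Il18 (1.43 ± 0.28) and Ebi3 (1.18 ± 0.29) were higher with radiation. With the combination 6 were higher, including Il18 (1.97 ± 0.27), Il15 (0.90 ± 0.13), and the chemokines Ccl3 (1.88 ± 0.38) and Ccl4 (1.44 ± 0.37). Xcl1, the ligand of Xcr1, ranged from 0.71 to 3.27 FPKM over the libraries, and Il12b, a subunit of the cytokine IL-12, from 0.03 to 0.38. Of 10 genes of CD40 signalling all were tested. Birc3 (0.55 ± 0.12) and Traf1 (0.40 ± 0.11) were higher with radiation, and Traf5 (0.60 ± 0.14) in addition with the combination, with list medians of 0.12 and 0.18. Of 9 inhibitory ligands 8 were tested. With radiation 4 were higher and Pvr was lower (-0.45 ± 0.11), and the higher ones included Cd274, which encodes PD-L1 (1.25 ± 0.37), and Pdcd1lg2, which encodes PD-L2 (1.72 ± 0.43). None of the lists of dendritic cell, costimulatory or inhibitory genes had a gene that passed between combination and radiation in edgeR (0 to 3 genes of each list at an unadjusted p under 0.05).

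**Figure D4:**
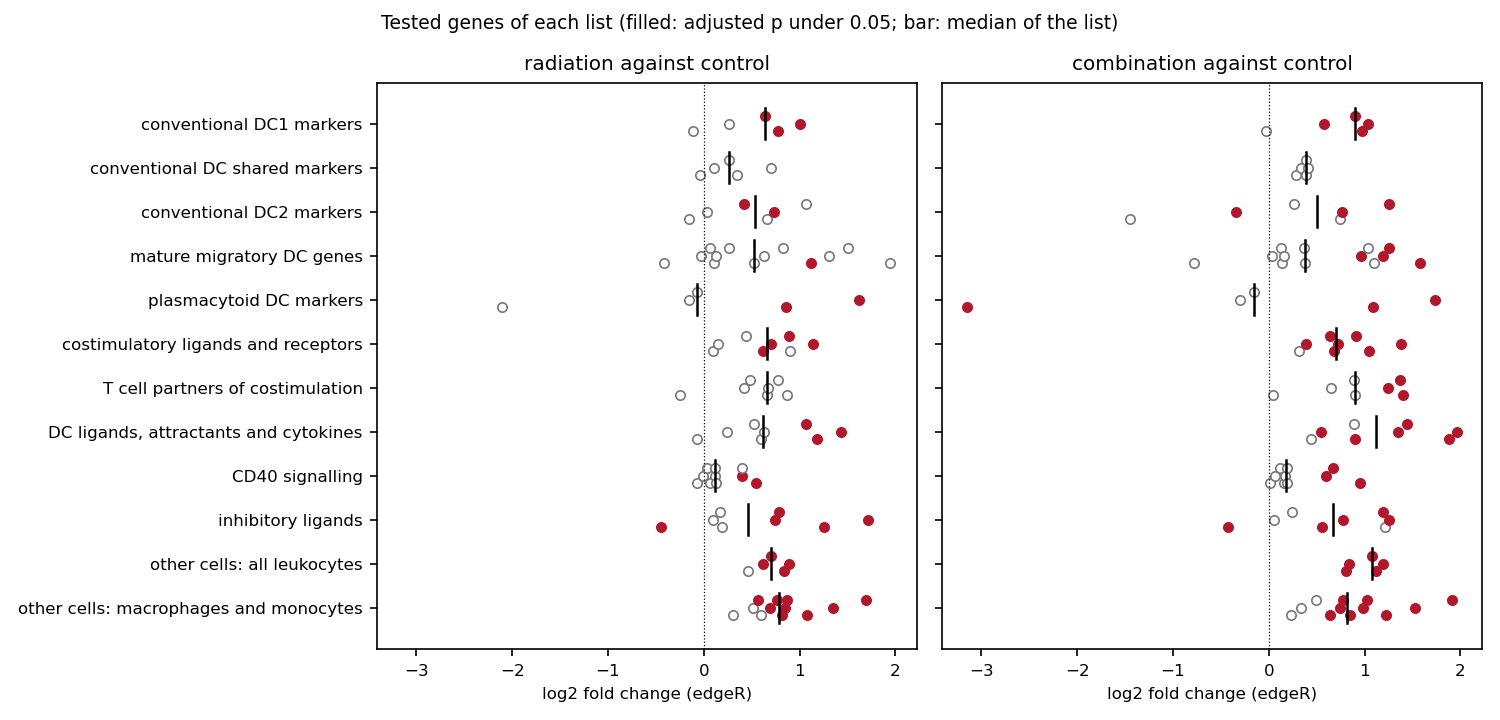
Log2 fold changes (horizontal axis) of the tested genes of each list with radiation and with the combination against control, a point per gene, filled where the adjusted p was under 0.05, with the list's median as a bar. The costimulatory list has 4 filled points of 8 with radiation and 7 of 8 with the combination.

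The genes nearest in pattern to the 5 more abundant members were taken as those with the highest Pearson r of log2 scaled counts (CPM) over the 12 libraries. For Cd80 these were Mdm2 (r = 0.964, Spearman rho = 0.895), the p53 target that restrains p53, Lyz1 (0.955) and Hoatz (0.950). Serpine2 (0.962), Lyz2 (0.961), the lysozyme of macrophages, and Man1a (0.957) were nearest to Cd86. Cd40 had Ccl5 (0.965), Rnf19b (0.953) and Cuedc1 (0.943). P2ry10 (0.887), Tusc1 (0.887) and Iqgap2 (0.886) were nearest to Ccr7, and Klhl36 (0.876), Chd9 (0.832) and Col14a1 (0.813) to Itgax, at lower r than for the costimulatory genes. All these values rest on 12 libraries that share the 4 treatment groups, and they describe these libraries only.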

How the data were processed

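Per the labels, total RNA of CT26 tumour tissue was made into libraries with a NEB Next Ultra kit. The submitters' processing notes name the build mm39 and the tools HTSeq 2.0.1, DESeq2 and STAR 2.5.3a with no roles. The strand setting of the counting is not given in the sources used here, so overlapping genes may share reads. The deposited table holds raw counts per gene and library. In it the authors also give FPKM, which were recomputed from the counts within 0.005. The 1492 entries without a symbol have Ensembl identifiers, made up 0.0579% to 0.0706% of each total count and were kept in the tests.

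The members and lists were chosen with earlier results of these data known. Counts were scaled by TMM and tested with edgeR 4.0.16 (R 4.3.3, glmQLFit and glmQLFTest) on a mean per group over all 12 libraries, for 8 comparisons, with Benjamini-Hochberg adjustment over all genes tested and a threshold of 0.05. The filter was 1 FPKM or more in 3 or more libraries (13668 genes), or edgeR's filterByExpr (16227 genes) for low members and for counts over the members. All members are named. Of other lists, up to 5 genes that passed are named, by the smallest p. Genes named beyond these (Flt3l, Tnfsf4, Xcl1, Il12b and Cd40lg) were chosen as partners of members after their values were seen. Alternatives were DESeq2 1.42.0, limma 3.58.1 on log2(FPKM + 1) and log2(FPKM + 0.1), other scalings, filters and covariates, and fits without each library. The scripts were tested on simulated data. Motifs were searched in RefSeq promoter windows, and sharing of 31-base stretches in GENCODE transcripts (release vM21).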

Additional observations from a re-analysis of the deposited data

How the results depend on the processing

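Counts of genes past the threshold moved more with the setting than the calls of the members did. All 10 genes kept the sign of every call except Cd40 with the Ptprc covariate (-0.62 for the combination against control and -0.087 for radiation over both levels of Complex 1); the cause was not tested. Outside the fits that leave out 1 library, 152 values of called member results were recomputed, of which 130 stayed past the threshold, 20 fell short and 2 changed sign. Of 735 values of results that were not called, 15 passed. In the fits that leave out 1 library, 35 further calls were lost and 6 gained. Cd80 with radiation and with the combination against control, and Cd86 in the same 2 comparisons, passed in every setting but the Ptprc covariate, where the fold changes were larger (0.86 and 1.15 for Cd80, 0.88 and 0.99 for Cd86) and the SE wider. The low members rest on 5 to 29 counts (Batf3) or 9 to 22 (Flt3) per library, which limits what could be detected for them.

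With the Ptprc covariate, genes higher and lower were 42 and 5 for radiation against control (1010 and 801 otherwise), 9 and 3 for Complex 1 against control (98 and 13), 3 and 0 for the combination against control (1620 and 1373), 6 and 0 for combination against radiation (84 and 5), 13 and 2 for combination against Complex 1 (647 and 717), 46 and 9 for radiation over both levels of Complex 1 (1823 and 1802), and 11 and 2 for Complex 1 over both levels of radiation (309 and 70). The members higher were then 0 for radiation, 0 for the combination, 0 for combination against Complex 1, and 1 for radiation over both levels.

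Without a filter on low genes, over the 31727 genes with any count, radiation against control gave 1221 lower genes. The members higher were 5 there against 3 in the reported fit, with Itgax and Cd40 in addition. Their SE were 0.14 and 0.20 without the filter, against 0.30 and 0.28 with it. The share of all genes higher in that setting is not given here, so the 5 is not read as a result about the members. That setting gave 591 and 212 for Complex 1 against control, 389 and 140 for combination against radiation, 1246 higher for combination against Complex 1, 890 and 372 for Complex 1 over both levels of radiation, and 91 and 72 for the interaction. DESeq2 gave 244 and 82 for Complex 1 against control, 158 and 29 for combination against radiation, 205 lower for Complex 1 over both levels of radiation, and 5 and 1 for the interaction. The limma fits with pseudocounts of 1 and 0.1 gave 464 and 472 lower genes for radiation, 825 and 820 for the combination against control, 2 and 3 for combination against radiation, and 31 and 29 for Complex 1 over both levels of radiation. Library totals alone gave 903 lower genes for the combination against control and 44 for Complex 1 over both levels of radiation. Fits of only the groups compared gave 459 lower genes for radiation, and 40 higher and 5 lower for Complex 1, against control.

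Leaving out Complex 1 replicate 3 and radiation replicate 2 together gave 1230 higher genes for radiation against control, 1547 lower for the combination against control, 59 higher for Complex 1 against control, 53 higher and 3 lower for combination against radiation, 1207 higher and 949 lower for combination against Complex 1, and 197 higher for Complex 1 over both levels of radiation. Members higher for combination against Complex 1, 1 in the reported fit, were 3 there and 2 with library totals, DESeq2, limma at a pseudocount of 1 and the replicate block.

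With each library left out in turn, genes higher and lower ranged from 542 to 1152 and 299 to 862 for radiation against control, 4 to 195 and 0 to 41 for Complex 1, 1172 to 1737 and 904 to 1439 for the combination, 25 to 92 and 0 to 8 for combination against radiation, 259 to 1034 and 323 to 850 for combination against Complex 1, and 175 to 423 and 23 to 184 for Complex 1 over both levels of radiation. Members higher ranged from 2 to 4 for radiation against control, 2 to 4 for the combination against control, 1 to 2 for combination against Complex 1, and 2 to 4 for radiation over both levels.

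The replicate numbers did not pair the libraries: deviations of the 18 same-numbered pairs correlated at -0.185 to 0.144, 4 pairs were over 0.1, and 4 of 12 libraries correlated best with their own number. With a replicate block, Itgax passed for radiation against control at 0.73 (adjusted p = 0.0300) and for radiation over both levels at 0.43 (adjusted p = 0.0379), and 1063 genes were higher for radiation against control.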

Other observations

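Markers of natural killer cells, a known source of the dendritic cell ligands Xcl1 and Flt3l, were read in the same libraries. The summed level of 6 such markers was 3.34 to 5.13 FPKM in control, 4.83 to 9.20 with Complex 1, 7.60 to 10.20 with radiation and 12.50 to 13.48 with the combination. The combination libraries lay above all others. Eomes and Klre1 passed the FPKM filter only through treated libraries, so the counts below are of genes that could be tested, not of the list. Of the 6, 4 were tested, of which 3 were higher with radiation in edgeR, namely Eomes (log2 fold change 1.64 ± 0.32 SE), a transcription factor, and the activating receptors Ncr1 (1.24 ± 0.26) and Klrk1 (1.03 ± 0.25). All 4 were higher with the combination, Klre1 in addition (1.08 ± 0.33). With Complex 1 alone none of the 4 passed, and 3 had an unadjusted p under 0.05, as had 12.2% of all genes of the count filter. Of 10 T cell markers 9 were tested, of which 1 was higher with radiation (Lck, 0.85 ± 0.25) and 3 with the combination (Lck, Cd2 and Cd4). Beside the counts of both lists stand 7.39% of the 13668 genes higher with radiation and 11.9% higher with the combination.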
